A study of Homo sapiens with 3 samples.

Results

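The regions described here are p300/CBP peaks that were called with the same width with and without depletion of Fra-1. They were chosen by their widths: a peak of at least 250 bp in siCTL cells and a peak of at least 250 bp in siFra-1 cells, on chromosomes 1 to 22 and X, that shared at least 1 bp with each other and with no further peak of the opposite list, and that were equally wide. Of 2139 such 1-to-1 pairs of wide peaks, 344 had equal widths, which is 16.1%. Another 509 were narrower in siFra-1 and 1286 were wider. The 344 pairs took in 9.44% of the 3644 siCTL peaks and 5.76% of the 5968 siFra-1 peaks of at least 250 bp on these chromosomes. The width chose the members, so their equal width is not a result.

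Both libraries came from MDA-MB-231, an established human cell line of triple-negative breast cancer, type basal B. A control siRNA (siCTL) or a pool of 3 siRNAs targeting FOSL1 (siFra-1) was transfected, each at 4.5 nM in total. After 72 h chromatin was fixed for 7 min and precipitated with an antibody that recognises both p300 and CBP. The whole lists held 82901 siCTL and 39320 siFra-1 peaks, each from 1 library in which replicate precipitations had been pooled, and the input sample was not analysed here. With 1 library per condition, no difference between the conditions could be set against a replicate spread, and every interval below is a 95% interval over regions that covers counting error only. Neighbouring regions are not independent, so these intervals may be too narrow. The lists give positions without heights or read numbers, so depth is unknown and equal width does not mean equal signal. A processing parameter of unstated meaning also differed between the lists, and its part in the widths was not tested. Neither the cell line nor the amount of Fra-1 could be checked from them.

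p300 and CBP are related lysine acetyltransferases that are brought to enhancers and promoters by transcription factors and acetylate histones there, and their occupancy is widely used to map active enhancers. Fra-1, the product of FOSL1, is a Fos family protein and dimerises with Jun proteins into AP-1, which binds the motif TGAGTCA. In many cell types AP-1 lies at enhancers, often together with TEAD factors.

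The sequences of 6 members show what these regions look like and are referred to below. Each is 200 bp around the centre of the stretch shared by both peaks, on the plus strand of hg19 (GRCh37), in lower case with AP-1 motifs in capitals. The first 4 hold AP-1, and each is the member nearest to a gene that the text returns to, though that gene need not be the nearest to the member. The fifth is the widest member at a promoter, and the last is the widest member of all, which has no AP-1 in this window.
AXL intron, chr19:41731777-41731976: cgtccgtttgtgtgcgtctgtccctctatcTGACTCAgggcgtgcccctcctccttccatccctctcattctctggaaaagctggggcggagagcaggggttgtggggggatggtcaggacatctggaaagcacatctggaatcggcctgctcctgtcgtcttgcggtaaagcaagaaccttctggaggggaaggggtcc
near AMOTL2, chr3:134146302-134146501: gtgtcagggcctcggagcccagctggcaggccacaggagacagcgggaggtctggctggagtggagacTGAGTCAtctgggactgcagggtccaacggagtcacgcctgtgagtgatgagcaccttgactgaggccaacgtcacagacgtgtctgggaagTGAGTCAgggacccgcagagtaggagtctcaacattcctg
near MXD1, chr2:70173777-70173976: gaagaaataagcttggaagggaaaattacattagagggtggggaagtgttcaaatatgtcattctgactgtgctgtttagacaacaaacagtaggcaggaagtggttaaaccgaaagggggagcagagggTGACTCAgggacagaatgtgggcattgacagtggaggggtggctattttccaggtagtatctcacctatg
near F3, chr1:95087027-95087226: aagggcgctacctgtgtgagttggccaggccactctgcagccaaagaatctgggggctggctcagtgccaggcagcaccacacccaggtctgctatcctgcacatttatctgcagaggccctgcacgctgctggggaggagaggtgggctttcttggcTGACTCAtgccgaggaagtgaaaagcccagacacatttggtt
CD22 promoter, chr19:35809902-35810101: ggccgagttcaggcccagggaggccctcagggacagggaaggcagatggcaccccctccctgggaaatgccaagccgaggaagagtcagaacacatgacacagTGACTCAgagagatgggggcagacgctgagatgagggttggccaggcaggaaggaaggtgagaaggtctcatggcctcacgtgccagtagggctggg
LINC02742 intron, no AP-1 in the window, chr11:28857877-28858076: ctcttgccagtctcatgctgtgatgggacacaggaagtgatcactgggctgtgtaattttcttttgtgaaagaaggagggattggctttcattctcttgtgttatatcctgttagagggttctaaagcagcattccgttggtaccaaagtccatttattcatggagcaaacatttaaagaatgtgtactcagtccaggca
In the AXL intron the motif lay toward the left end of the window, near AMOTL2 a pair of motifs stood on either side of the centre, and at CD22 the motif was almost central.

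Both peaks of a member often lay at or near the same place, as did those of unequal pairs. Their centres were within 25 bp in 41.6% of members, 49.9% of narrower and 50.5% of wider pairs. In members, which are displaced by whole bins, this meant identical ends, whereas centres of unequal pairs could also lie exactly 25 bp apart. The cut-off is thus stricter for members, and these shares do not rank the classes. Both ends were identical in 143 of the 344 pairs (41.6%, Wilson interval 36.5% to 46.8%). In a further 158 pairs (45.9%, 40.7% to 51.2%) the siFra-1 peak was displaced by 1 bin of 50 bp, the step of the authors' signal. The displacement was thus at most 1 bin in 301 pairs (87.5%, 83.6% to 90.6%) and larger in 43. The median member shared 90.5% of its width, and only 4 members shared less than 50%, the lowest being 33.3%. Among the 201 displaced members, the siFra-1 peak lay at higher coordinates in 114 and at lower coordinates in 87, and the share at higher coordinates had an interval that included 50% (56.7%, 49.8% to 63.4%).

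Widths ran from 250 to 1100 bp with a median of 400 bp (quartiles 300 and 500 bp). The threshold cut into the distribution: 66 members were 250 bp wide, just inside it, and 101 further equal pairs were 200 bp wide, just outside it. Identical coordinates were found in 29 of the 66 and in 41 of the 101. Pairs with a width difference of 1 bin were the nearest neighbours of the members on the other side of the rule. There were 224 such pairs narrower in siFra-1 and 357 wider, so 925 pairs were within 1 bin. Over all 1-to-1 pairs the median difference was 50 bp in the direction of wider siFra-1 peaks, with a range from -500 to 750 bp.

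**Figure D1:**
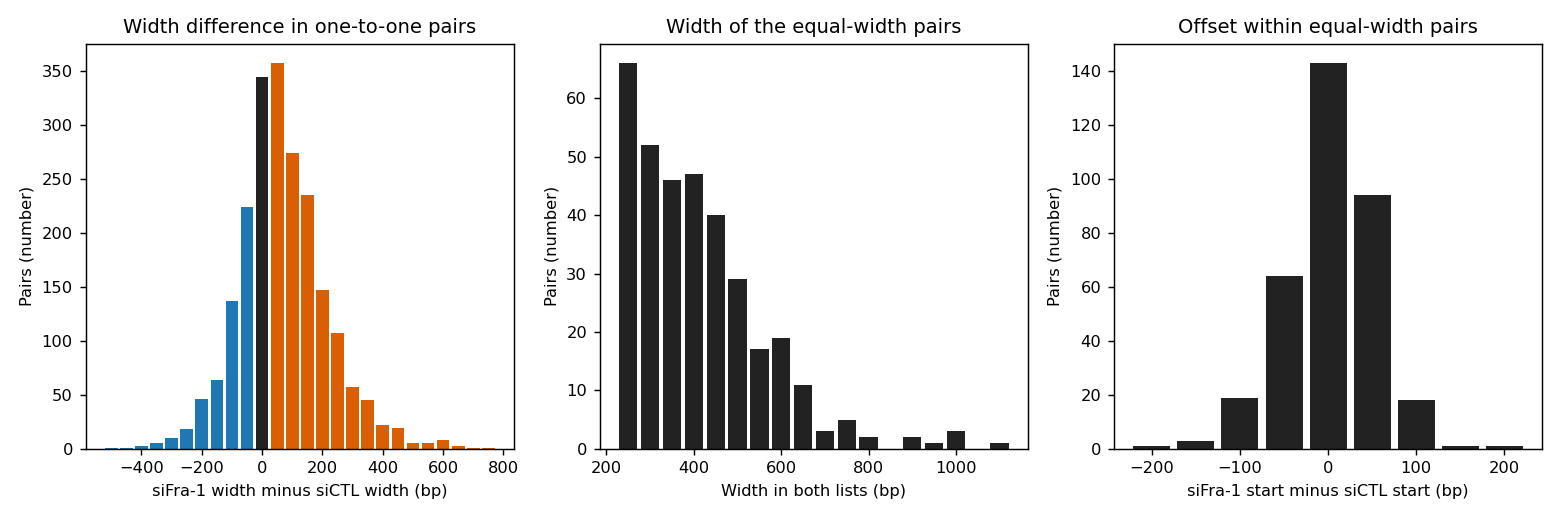
Bars count pairs of wide p300/CBP peaks, against the siFra-1 minus siCTL width in bp for all 2139 pairs (left; blue narrower, black equal, orange wider in siFra-1), the common width in bp of the 344 equal-width pairs (middle) and their siFra-1 minus siCTL start in bp (right). The 344 equal pairs sit beside 224 pairs narrower and 357 pairs wider by 1 bin, and 143 of them have an offset of 0.

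The proportion of equal pairs varied little with siCTL width. It was 20.2% (16.2% to 24.9%) at 250 bp, 15.5% for peaks of 300 or 350 bp, 15.6% for those of 400 or 450 bp and 14.9% (12.3% to 17.9%) from 500 bp upward. At 250 bp no pair could be narrower in siFra-1, since both peaks had to reach 250 bp. Between chromosomes it ran from 3.33% of 30 pairs on chromosome 21 to 25.3% of 87 pairs on chromosome 4. Of the 22 members on chromosome 4, 9 lay close to a large gap of the assembly, that is, no more than 1 Mb from one of 1 Mb or longer.

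A small set of members lay near large gaps, and most of these held repeats of the satellite type, as did some unequal pairs. Close to a large gap there were 28 members (8.14%, 5.69% to 11.5%), compared with 4.13% of pairs narrower and 5.13% of pairs wider in siFra-1. Of these 28, 9 were on chromosome 4, 6 on chromosome 10, 4 on chromosome 8 and 3 on chromosome 2, and their median width was 250 bp. In 20 of the 28, the central 200 bp held at least 5 copies of GGAAT, the unit of pericentromeric satellite repeats, on either strand. None of the other 316 members did, and AP-1 was found in 1 of the 28. At least 5 copies were also held by 13 of 509 narrower pairs (12 near a large gap) and 45 of 1286 wider pairs (36 near one). Read placement in such repeats is uncertain. A further member, 500 bp with identical ends in an intron of the non-coding gene LINC00486 (chr2:33141252-33141751), had a GC content of 96.0% in its central 200 bp, the highest of all members, where the member second in GC had 77.5%. These members were kept, and the TEAD, flank and neighbour results below are also given without the 28.

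Members lay mostly far from genes' start sites. The centre of the shared stretch fell in an intron in 179 members (52.0%), between genes in 133 (38.7%) and in an exon in 32 (9.30%). The median distance to the nearest TSS of a protein-coding gene was 60.1 kb (quartiles 17.0 and 155 kb), beside 46.9 kb for narrower and 52.8 kb for wider pairs. Here and below, the TSS was where the gene record begins in its direction of transcription. Further transcript starts inside a gene were not counted. Differences from the unequal pairs had intervals that included 0 for introns (-3.90 percentage points, Newcombe interval -9.64 to 1.82), exons (0.723, -2.26 to 4.46), space between genes (3.18, -2.30 to 8.85) and a TSS within 10 kb (2.02, -2.05 to 6.69).

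Promoters were more frequent among the members. A 3 kb window centred on the TSS of a protein-coding gene was touched by 25 members (7.27%, 4.97% to 10.5%), compared with 17 narrower pairs (3.34%) and 49 wider pairs (3.81%). The difference from all unequal pairs was 3.59 percentage points (1.10 to 6.92). It was 4.11 (1.41 to 7.70) without pairs near large gaps. When TSS of all annotated genes were used, non-coding ones included, it was 1.39 and its interval included 0 (-2.17 to 5.64).

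**Figure D2:**
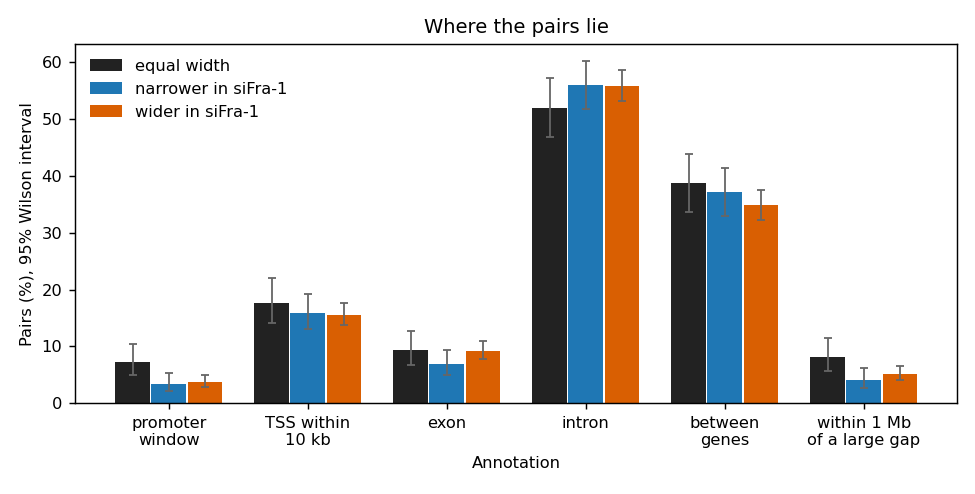
Bars give the percentage of pairs at each type of place, with 95% Wilson intervals, for the 344 equal-width pairs (black), the 509 narrower (blue) and the 1286 wider (orange). Shares are alike for introns, exons and space between genes, while 7.27% of equal-width pairs touch a promoter window against 3.34% and 3.81%.

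The widest promoter members were 600 bp, with identical ends in both lists. They lay at CD22 (chr19:35809702-35810301), which encodes a sialic acid-binding receptor of B cells, and at TGM2 (chr20:36796302-36796901), which encodes a transglutaminase. A 550 bp member lay in an intron of SH3TC2, its centre 0.575 kb from the TSS, displaced by 50 bp. A member of 450 bp with identical ends lay in an intron of ESRP2, a regulator of epithelial splicing, 0.379 kb from the TSS. CD55, which encodes a complement regulator, had a 400 bp member with identical ends 0.0130 kb from its TSS.

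Histone genes recurred among the promoter members, and were singled out after the values were seen. Of the 25, 4 touched the promoter window of a replication-dependent histone gene on chromosome 6, namely H1-2, H4C3, H4C8 and H4C11, with widths of 350 to 450 bp. This was so for 0 of the 17 narrower and 2 of the 49 wider promoter pairs. Histone genes are a family of similar copies, so reads there may be placed with less certainty, which was not tested. With all histone promoters left out, the promoter difference was 2.61 percentage points (0.295 to 5.78). Other promoter members lay at TRIB1, TRIB3, GDF15 and ANGPTL4, also named after their positions were seen and not as a functional group.

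Sequence at promoter members differed from that of the other members. Their median GC content was 59.5%, against 48.0% in the 319 distal members. The SP1 motif GGGCGG, typical of GC-rich promoters, was in 8 of 25 (32.0%) compared with 25 of 319 (7.84%). AP-1 was in 8 of 25 (32.0%, 17.2% to 51.6%) compared with 117 of 319 (36.7%, 31.6% to 42.1%).

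AP-1, searched like every motif on both strands, was in about as many members as TEAD and stood furthest above its background. The central 200 bp held TGAGTCA or TGACTCA in 125 members (36.3%, 31.4% to 41.5%). The same windows moved by 2 kb to either side held it in 4.22% of 688, and 28354 windows of 200 bp spaced along the genome in 2.97%. The shared stretch of 12 members was under 200 bp, so there the window reached beyond it. Over the whole shared stretch, 153 members (44.5%) held AP-1: 119 had 1 motif, 32 had 2 and 2 had at least 3. The share rose with the length searched, from 31.8% of members 250 bp wide to 59.1% of those of 500 bp and over, while the number per kb was 1.57 and 1.41. The AXL member, with 3 motifs over 750 bp, was among those with most.

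As a point value, the members' AP-1 share lay between those of the 2 unequal classes. From all unequal pairs together it differed by 0.181 percentage points, with an interval that included 0 (-5.22 to 5.83). Narrower pairs held AP-1 in 46.4% (42.1% to 50.7%) and wider pairs in 32.1% (29.6% to 34.7%). Equal-width pairs differed from narrower pairs by -10.0 percentage points (-16.6 to -3.28). Narrower pairs had wider siCTL peaks, with a median of 450 bp. Weighted to the same siCTL widths, which dropped the 66 members of 250 bp and kept 278, the difference was -6.96 and its interval included 0 (-14.2 to 0.279). From wider pairs the members differed by 4.22 (-1.33 to 10.00), so no difference was detectable with this number of pairs.

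AP-1 motifs were concentrated at the centre of the shared stretch. Of the 210 motifs within 250 bp of the centre, 80 lay within 50 bp of it (38.1%, 31.8% to 44.8%). The density was 2.33 motifs per kb within 50 bp and 0.262 per kb at 250 to 500 bp. In narrower pairs 47.3% (42.5% to 52.3%) of motifs lay within 50 bp of the centre, in wider pairs 35.7% (32.3% to 39.3%).

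**Figure D3:**
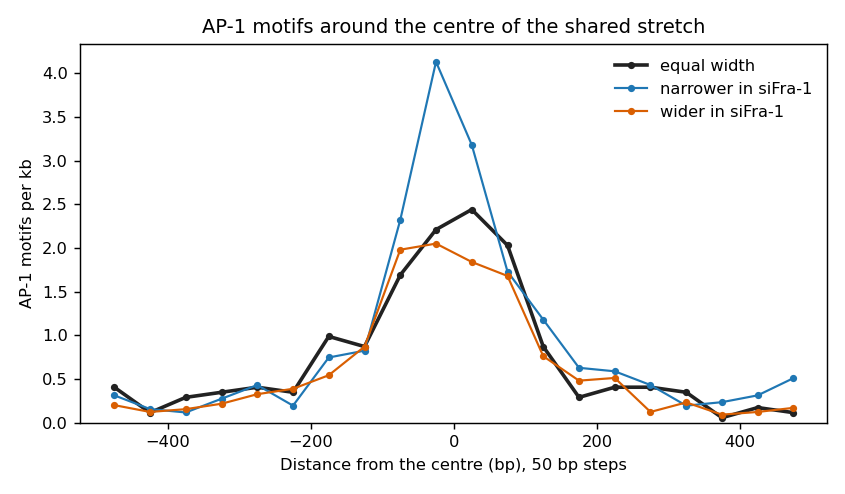
Lines give the number of AP-1 motifs per kb (vertical axis) in steps of 50 bp from the centre of the stretch shared by both peaks (horizontal axis, bp), for equal-width (black), narrower (blue) and wider (orange) pairs. The black line peaks at 2.44 motifs per kb in the step right of the centre and lies below the blue line at the centre.

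Displaced members allowed motifs to be placed relative to the part each list covered. The stretch shared by both peaks held 105 motifs over 67.8 kb, or 1.55 per kb (1.27 to 1.87). The part covered by siCTL alone held 10 over 12.6 kb (0.794 per kb, 0.381 to 1.46). The part covered by siFra-1 alone held 7 over 12.6 kb (0.556 per kb, 0.223 to 1.14). Motifs were denser in what both lists covered than in the siFra-1 part alone, with intervals that did not overlap, whereas the interval of the siCTL part overlapped both. The shared stretch is also the middle of each pair, and the part of position in this difference was not tested. AP-1 was in 32.9% of members with identical ends and in 38.8% of displaced ones, a difference of -5.94 percentage points whose interval included 0 (-15.9 to 4.39).

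The bases next to the motif were not those of AP-1 motifs at large. Read on the strand that gives TGAGTCA, 79 of the 189 motifs in shared stretches were followed by c (41.8%, 35.0% to 48.9%), compared with 26.4% of 850 motifs in the genome windows. Only 13 were followed by a (6.88%), compared with 23.5%, a difference of -16.7 percentage points (-20.7 to -11.4). Before the motif, t was found in 19 (10.1%) compared with 22.7%, a difference of -12.7 (-17.2 to -6.87). The most frequent contexts were cTGAGTCAc and gTGAGTCAc, with 26 motifs each.

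The remaining 11 motifs searched gave lower contrasts. TEAD, searched as GGAATG, was in 36.0% of members and in 16.3% of moved windows, with 10.6% in the genome windows. GGAATG overlaps the satellite unit GGAAT, and 21 of the 28 members near large gaps held it. Without them the share was 32.6% (27.7% to 37.9%), compared with 12.7% in moved windows. RUNX, as TGTGGT, was in 25.0% (moved 11.8%, genome 13.7%), FOX, as TGTTTAC, in 5.81% (moved 2.03%, genome 3.32%), ETS, as CCGGAAG, in 2.62% (moved 0.872%, genome 0.451%) and SP1 in 9.59% (moved 4.51%, genome 2.84%). These factors bind enhancers or promoters in many cell types.

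C/EBP, as TTGCNNAA, was in 10.2% of members and 10.6% of genome windows, so its share did not rise above the genome. NF-kB, as GGANTTTCC, was in 2.62% (moved 1.02%, genome 0.712%), and the E-box CACGTG in 3.20% (moved 2.18%, genome 1.76%). CTCF, as CNAGGGGGC, was in 0.581% (moved 0.581%, genome 0.300%), so its share did not rise above the moved windows. The CRE TGACGTCA was in 1 member, or 0.291% (moved 0.145%, genome 0.0670%). The ZEB and SNAI motif CAGGTG, bound by repressors of epithelial genes, went the other way: it was in 11.0% of members (8.15% to 14.8%), 19.6% of moved windows (16.8% to 22.8%) and 14.7% of genome windows. Of the 12 motifs, AP-1 was the one whose difference between equal and narrower pairs had an interval without 0, and between equal and wider pairs there was none. These intervals were not adjusted for the number of motifs.

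Members without AP-1 in the central 200 bp held TEAD in 39.7% of 219 and members with AP-1 in 29.6% of 125. The difference was -10.1 percentage points with an interval that included 0 (-20.0 to 0.436). Without members near large gaps it was -5.86 (-15.9 to 4.79).

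**Figure D4:**
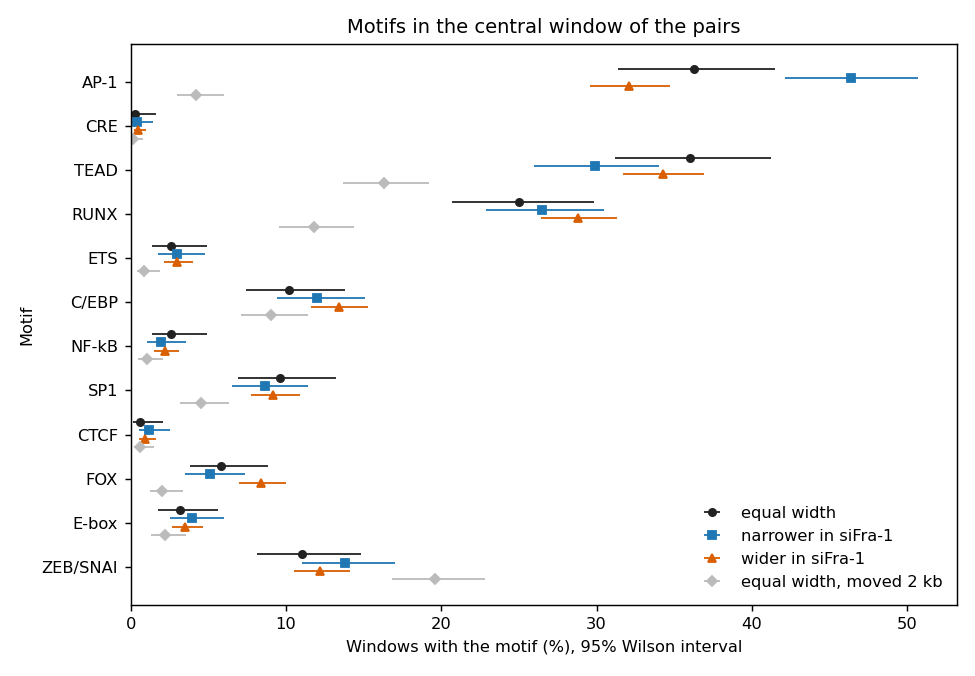
Points give the percentage of 200 bp windows that hold each of 12 motifs, with 95% Wilson intervals, for equal-width (black circles), narrower (blue squares) and wider pairs (orange triangles) and for equal-width windows moved by 2 kb (grey diamonds). AP-1 stands at 36.3% in equal-width pairs against 4.22% when moved, and at 46.4% and 32.1% in narrower and wider pairs.

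The widest members lay at distal sites, and none of the 8 widest held AP-1 in its central 200 bp. Over all 93 members of 500 bp and over, 31 held it there (33.3%), beside 34.8% of members 250 bp wide. The widest, at 1100 bp, lay in an intron of the non-coding gene LINC02742 (siCTL chr11:28857402-28858501), displaced by 50 bp. Its nearest protein-coding TSS, of METTL15, was 728 kb away, and 1 AP-1 motif lay outside the central window printed above. Members of 1000 bp lay in introns of ARHGAP29-AS1 (chr1:94790952-94791951, displaced by 50 bp) and of BNIP3L, a mitophagy receptor gene (chr8:26308652-26309651, identical ends), and between genes 47.3 kb from the TSS of HOXB1 (chr17:46560552-46561551, identical ends).

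A 950 bp member lay in an intron of SUSD1 (chr9:114803852-114804801). Members of 900 bp lay 11.7 kb from the TSS of LTA, a tumour necrosis factor family gene, in an exon of a non-coding gene (chr6:31527702-31528601), and in an intron of SMAD3, a mediator of TGF-beta signalling (chr15:67442252-67443151). These 3 had identical ends. The eighth, of 800 bp, lay 31.5 kb from the TSS of LPCAT1 and was displaced by 100 bp. It was tied in width with a member on the same chromosome (chr5:172882052-172882851), 127 kb from the TSS of STC2, which had identical ends and 1 AP-1 motif and was placed ninth by genome order. Along their shared stretches, 5 of the 8 held 1 AP-1 motif and 3 held none.

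To place the members against genes, pairs were assigned to each protein-coding TSS within 100 kb. At least 1 member lay there for 662 of 20090 genes, which is 3.30%, beside 4.58% for narrower and 8.89% for wider pairs. The study had followed 34 genes whose expression Fra-1 raised (16) or lowered (18). Members lay near 3 of the 34, all in the raised group: FOSL1, PDE2A and MXD1. Near the 18 lowered genes there were 0 members. Beside a share of 3.30% of all genes, 0 among 18 is not a result about the members. Narrower pairs lay near 6 raised and 5 lowered genes, and wider pairs near 5 raised and 11 lowered genes. With numbers this low, the groups were not compared further.

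FOSL1, the gene of Fra-1 itself, had 2 members within 100 kb. A 250 bp member lay in a FOSL1 intron, 1.02 kb downstream of the TSS, at chr11:65666852-65667101 in siCTL and chr11:65666952-65667201 in siFra-1. It had a GC content of 72.0% and no AP-1 in the 150 bp that both peaks shared. A second, 650 bp wide with identical ends (chr11:65678902-65679551), lay 11.2 kb upstream and held 2 AP-1 motifs outside its central 200 bp. FOSL1 also had 2 narrower pairs and 1 wider pair within this distance, so peaks around the gene did not all keep their width. The siRNA acts on the RNA of FOSL1, and these positions do not measure that RNA.

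MXD1, which encodes a MAX partner that opposes MYC, had a 450 bp member 49.1 kb downstream of its TSS (chr2:70173702-70174151), where the siFra-1 peak was displaced by 100 bp to lower coordinates. It held 1 AP-1 motif, printed above, and its nearest TSS was that of ASPRV1. PDE2A, which encodes a cyclic nucleotide phosphodiesterase, had a 250 bp member in an intron 31.1 kb from its TSS, displaced by 100 bp, with no AP-1 in the shared 150 bp. It still counts among the 125 members with AP-1 in the central 200 bp, since that window reached beyond the shared stretch and held 1 motif there. Neither gene had a narrower or wider pair within 100 kb.

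The counts over gene lists that follow are to be read beside those shares of all genes (3.30%, 4.58% and 8.89%). Among genes of the AP-1 family, 4 of 14 had a member within 100 kb: FOSL1, FOSL2 (17.1 kb from the TSS), MAFF (38.5 kb) and JUND (92.9 kb). Narrower pairs lay near 3 and wider pairs near 5 of the same 14. The JUND member was the one at the promoter of GDF15. Of 18 genes of the Hippo and TEAD axis, 3 had a member, 1 a narrower pair and 9 a wider pair. The AXL member, 750 bp with identical ends (chr19:41731502-41732251), lay 6.75 kb from the TSS in an intron of this receptor tyrosine kinase gene and held 3 AP-1 motifs. AMOTL2, which encodes an angiomotin that restrains YAP, had a 500 bp member with identical ends 52.1 kb away, holding 2 motifs. F3, which encodes tissue factor, had 2 members. The nearest of them lay 79.8 kb from its TSS in an exon of the non-coding gene SLC44A3-AS1 and was 250 bp wide with identical ends.

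TGF-beta pathway genes had a member in 2 of 22 cases, SMAD3 and LTBP1, and the LTBP1 member was the one of 96.0% GC, while 2 had a narrower and 5 a wider pair. Invasion and adhesion genes had one in 4 of 44 cases, namely ITGB4, FLNA, ACTN1 and PTK2, which encode an integrin, 2 actin-binding proteins and focal adhesion kinase, while 14 had a narrower and 17 a wider pair. None of 20 luminal genes had one, while 2 had a narrower and 4 a wider pair. The lists hold few genes and wide peaks lie unevenly along the genome, so these counts describe the loci only. PDGFB had 3 members within 100 kb, the most of any gene, and EPHA2, an ephrin receptor gene, had 2, both in its introns, of 600 and 650 bp and both displaced by 50 bp.

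The surroundings of the members were examined through the other peaks with their centre within 10 kb. These numbered 1589 in siCTL and 1462 in siFra-1, which gives siFra-1 over siCTL as 0.920 (0.856 to 0.988, by the Clopper-Pearson method). Peaks between neighbouring members were counted for each of them. The ratio over the whole lists on these chromosomes was 0.473, and around narrower and wider pairs it was 0.827 (0.769 to 0.889) and 0.941 (0.903 to 0.981). The number of flanking peaks was set largely by the 28 members near large gaps, whose peaks were often counted repeatedly because these members lie in dense groups. Without them, 767 siCTL and 580 siFra-1 peaks remained around 316 members, a ratio of 0.756 (0.678 to 0.843), against 0.737 (0.675 to 0.805) around narrower and 0.860 (0.816 to 0.907) around wider pairs.

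Flanking peaks of different width gave different ratios. Around all members it was 1.17 (1.07 to 1.28) for peaks of at least 150 bp and 1.41 (1.23 to 1.61) for peaks of at least 250 bp. Over the whole lists the corresponding ratios were 0.855 and 1.64. Without members near large gaps they were 1.04 (0.888 to 1.22) and 1.26 (1.02 to 1.57). Wide peaks next to the members were thus more numerous in siFra-1, although the members themselves had one width in both.

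**Figure D5:**
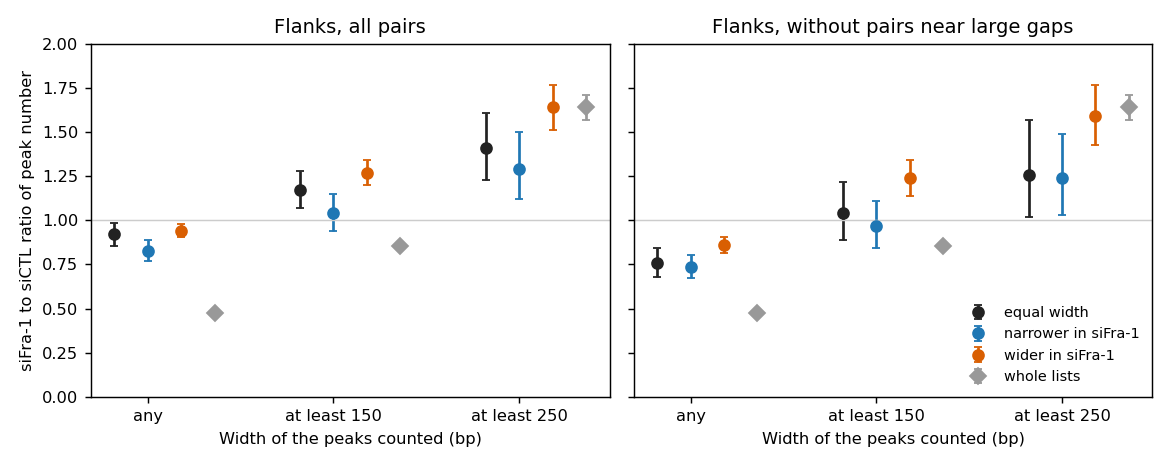
Points give the ratio of siFra-1 to siCTL peak numbers (vertical axis) within 10 kb of equal-width (black), narrower (blue) and wider pairs (orange), for peaks of any width, of at least 150 bp and of at least 250 bp, with 95% Clopper-Pearson intervals, beside the ratio over the whole lists (grey, the same in both panels). Around equal-width pairs the ratio rises from 0.920 to 1.41 with all pairs (left) and from 0.756 to 1.26 without pairs near large gaps (right).

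Another 1-to-1 pair of wide peaks lay within 50 kb of 178 members (51.7%), and 166 had none. These 178 had 294 different neighbours, of which 57 were themselves of equal width (19.4%), 70 narrower (23.8%) and 167 wider in siFra-1 (56.8%). The members near large gaps lay in dense groups and supplied part of the equal neighbours. Without pairs near large gaps, 154 of 316 members had a neighbour, and of 232 different neighbours 36 were equal (15.5%), 61 narrower (26.3%) and 135 wider (58.2%). Around wider pairs, also without those near large gaps, the shares were 16.0%, 19.8% and 64.2%. Around narrower pairs they were 20.3%, 24.5% and 55.2% of 290 different neighbours. Over all 2139 pairs, those near large gaps included, 16.1% were equal. As width chose the classes, these shares are given without a test.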

How the data were processed

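p300/CBP ChIP-seq was analysed for 1 siCTL and 1 siFra-1 library of MDA-MB-231 cells. The deposited lists hold chromosome, start and end of each peak on hg19 and no other value, so the unit of the values used is position. As the authors describe, replicate precipitations were pooled before library preparation, reads were aligned, signal in 50 bp bins was scaled and background was subtracted, and stretches of signal over a threshold of 25 were called as peaks, with the same threshold for both libraries. Another setting (AThr), not explained in the sources used here, had different values for siCTL and siFra-1, and its effect on widths was not tested. The sources name different aligners (BWA in the methods, Bowtie2 in the submitters' processing notes). A difference in enrichment or scaling between the libraries changes peak widths as a difference in occupancy would. All starts and ends lie 1 bp after a multiple of 50. Lists were read as BED and 1 was added to starts, which leaves printed starts uncertain by 1 bp.

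Overlap, pairing and motif search were done with scripts of this re-analysis (Python 3.11.15; packages scipy 1.17.1, pandas 2.3.3, numpy 2.4.6 and, for plots, matplotlib 3.10.9). They were tested on simulated data, and the 8159 overlaps of the real lists were equal to those of bedtools 2.31.1. Sequence came from the GRCh37 primary assembly and genes from GENCODE release 44 lifted to it. Location was taken at the centre of the shared stretch. Motifs were exact matches to consensus letters, searched on either strand.

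Shares have Wilson, differences Newcombe, ratios of counts Clopper-Pearson and width-weighted differences normal-approximation intervals, all at 95%. No p-value is given. The depth of the libraries is unknown, and with it the precision of each peak call. Named regions were the 8 widest members, the 6 widest at promoters, members within 100 kb of the 34 genes followed by the study, and up to 4 genes of each other list. Members, lists and motifs were chosen with earlier results of these data known. Alternatives were stricter widths, overlaps and windows, other motif windows, weighting to width and other distances to genes and flanks. Leaving out pairs near large gaps (for promoters, motifs, flanks and neighbours) or histone promoters, counting only flanking peaks of at least 250 bp, and weighting only over widths found in both classes were added after the data were examined.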

Additional observations from a re-analysis of the deposited data

How the results depend on the processing

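Of 43 alternative settings, 32 kept their side of the threshold or stayed within the interval or 1.5 times the value reported, and 2 reversed a direction, both of the flank ratio. The number of equal-width pairs was 226 when both peaks had to reach 350 bp and 925 when widths 1 bin apart were counted as equal. The share with identical coordinates was 87.5% when starts 1 bin apart were counted as identical. The promoter difference was 1.39 percentage points with the TSS of all genes, and the AP-1 difference from narrower pairs was -6.96 after weighting to width, both with intervals that included 0. The flank ratio of 0.920 turned to the other side of 1 for peaks of at least 150 bp (1.17) and of at least 250 bp (1.41). It was 0.922 within 5 kb, with an interval that included 1, and 0.756 without pairs near large gaps. Genes with a member numbered 352 within 50 kb and 1506 within 250 kb. The cause of these shifts was not tested, apart from the stricter or looser distances and widths, which by construction take in fewer or more pairs. No paired analysis was possible because each condition has 1 library and no result comes from a test. Peak heights and read depth are unknown, so a peak of equal width may differ in signal, and 50 bp bins hide smaller shifts.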
